A study of Mus musculus with 2 samples.

Results

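Intracisternal A particle (IAP) elements of the IAPEz type were described here in mitotic mouse embryonic stem (ES) cells, by reads of the matched input and of a ChIP for H3.3S31ph, the histone variant H3.3 carrying a phosphate on serine 31. All entries of the repeat table whose name starts with IAPEz, IAPLTR1 or IAPLTR2 were taken, which gave 6 of 952 repeat types: the internal sequence IAPEz-int, the long terminal repeats (LTRs) IAPLTR1_Mm and IAPLTR1a_Mm, and the LTRs IAPLTR2_Mm, IAPLTR2a and IAPLTR2b. All 6 had at least 100 input reads and were analysed. The choice rests on names, but it was made when earlier results had already placed these entries above the other IAP entries.

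The series holds 1 ChIP sample and 1 input sample of wild-type ES cells of strain 129S1/SvImJ at a passage below 20. Both came from cells held for 12 hours in RO-3306 at 9 µM, which blocks the kinase CDK1 and so entry into mitosis, and collected 11 hours after it was washed out. Fixation was with 0.4% formaldehyde, chromatin was sheared to about 300 bp, and the ChIP used 10 µg of antibody; the input had none. There was no unsynchronised group, no cell line without the mark and no second culture, and neither the cell type nor the mitotic state can be checked in read counts of repeats.

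IAP elements are endogenous retroviruses. The internal sequence carries the gag, pro and pol regions of the element, and an LTR at each end carries its promoter and polyadenylation signal. Recombination between the LTRs of 1 copy can leave a solitary LTR without internal sequence. In mouse ES cells IAP elements are kept silent by DNA methylation and by H3K9 trimethylation set by SETDB1 with KAP1, and the histone variant H3.3 is known to be placed there. H3.3 differs from the replication-coupled H3 histones at serine 31 among other residues, and this serine is phosphorylated in mitosis. The table names subtypes only: the age of the copies, their positions and which LTR belongs to which internal copy are not analysed here, and no sequence of these entries was used.

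The internal sequence held most of the reads. IAPEz-int had 274225 ChIP and 72442 input reads in lane 1, and 268558 and 71508 in lane 2. It made up 93.2% of the ChIP reads of the 6 entries (95% Wilson interval 93.1 to 93.3%) and 92.1% of their input reads (91.9 to 92.2%). At the same share in both libraries its 143950 input reads would correspond to 198865 ChIP reads, and 542783 were counted. It thus supplied 93.9% of the ChIP reads that the 6 entries had beyond that level. Any sum over the 6 entries is therefore close to a value of IAPEz-int, and the LTR entries are described one by one.

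The LTR entries rested on far fewer reads. IAPLTR1a_Mm had 3931 ChIP and 858 input reads in lane 1 and 3876 and 907 in lane 2. IAPLTR1_Mm had 4284 and 1218 in lane 1 and 4207 and 1152 in lane 2. IAPLTR1_Mm was thus the larger of the LTR1 types in input reads. Among the LTR2 types, IAPLTR2_Mm had 7593 ChIP and 2653 input reads in lane 1 and 7459 and 2511 in lane 2. IAPLTR2a, the smallest entry, had 1780 and 641 in lane 1 and 1726 and 564 in lane 2. IAPLTR2b had 2432 and 997 in lane 1 and 2331 and 907 in lane 2. In both lanes and in all 6 entries the ChIP reads outnumbered the input reads by more than the table totals did.

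The enrichment ratio, the share of an entry among all ChIP reads of the table over its share among all input reads, was above 1 in each of the 6 entries. Ratios in lane 1 and lane 2 were 3.299 and 3.11 for IAPLTR1a_Mm, 2.73 and 2.73 for IAPEz-int, and 2.53 and 2.66 for IAPLTR1_Mm. They were 2.06 and 2.16 for IAPLTR2_Mm, 1.999 and 2.23 for IAPLTR2a, and 1.76 and 1.87 for IAPLTR2b. The lanes are repeat runs of the same libraries, so their agreement speaks to sequencing and not to the spread between cultures. Lane values did not overlap between the LTR1 types and the LTR2 types. IAPLTR2a differed most between lanes, by 0.16 on the log2 scale, and 16 of 185 other repeats of like abundance (1205 to 5164 input reads) differed at least as much. For all 6 entries the lane difference lay within 1.96 standard errors of counting.

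**Figure D1:**
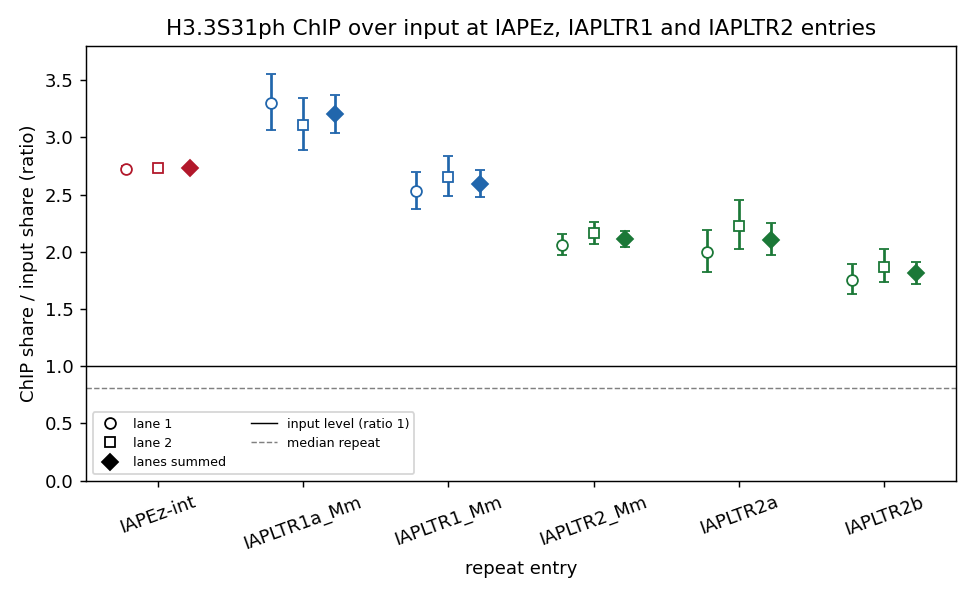
Enrichment ratio (ChIP share over input share, linear axis) of the 6 entries in lane 1 (open circles), lane 2 (open squares) and the summed lanes (diamonds), with 95% exact intervals of counting error; red marks the internal sequence, blue the LTR1 types and green the LTR2 types. All points lie above the input level of 1, from 1.76 for IAPLTR2b in lane 1 to 3.299 for IAPLTR1a_Mm in lane 1, and the blue points lie above the green ones.

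All 6 entries had an interval above 1, against 7.81% of the 704 repeats with at least 100 input reads. All 6 had a ratio of at least 1.5, which 1.99% of these repeats reached, and 5 had a ratio of at least 2, which 1.14% reached. The sixth, IAPLTR2b, was at 1.81. All 6 also had an interval above the median repeat, as did 27.3% of the repeats. By ratio the 6 entries took ranks 2, 3, 4, 6, 7 and 9 of 704. The 3 other repeats at or above the level of IAPLTR2b were simple repeats: the telomeric (CCCTAA)n at 14.4, (CACAG)n at 2.39 and (CCCCAG)n at 2.04. Of the 185 other repeats of like abundance to the LTR entries, 1 reached 1.5, namely (CACAG)n, and their median ratio was 0.804. The next repeats below IAPLTR2b were (CCCCG)n at 1.65, the LTR entry ERVB4_2-LTR_MM at 1.59 on 254 input reads, and RLTR1B, also an LTR, at 1.56. The authors' deposited table gives a lower bound of the log2 ratio for each lane. Over the 6 entries and both lanes the lowest of these bounds was 0.892, for IAPLTR2b in lane 1. These bounds come from the same counts but on the authors' own scale, which lies higher. With lanes summed, IAPLTR2b was at 2.04 on that scale and at 1.81 on table totals. On table totals its lane 1 interval began at a ratio of 1.63.

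**Figure D2:**
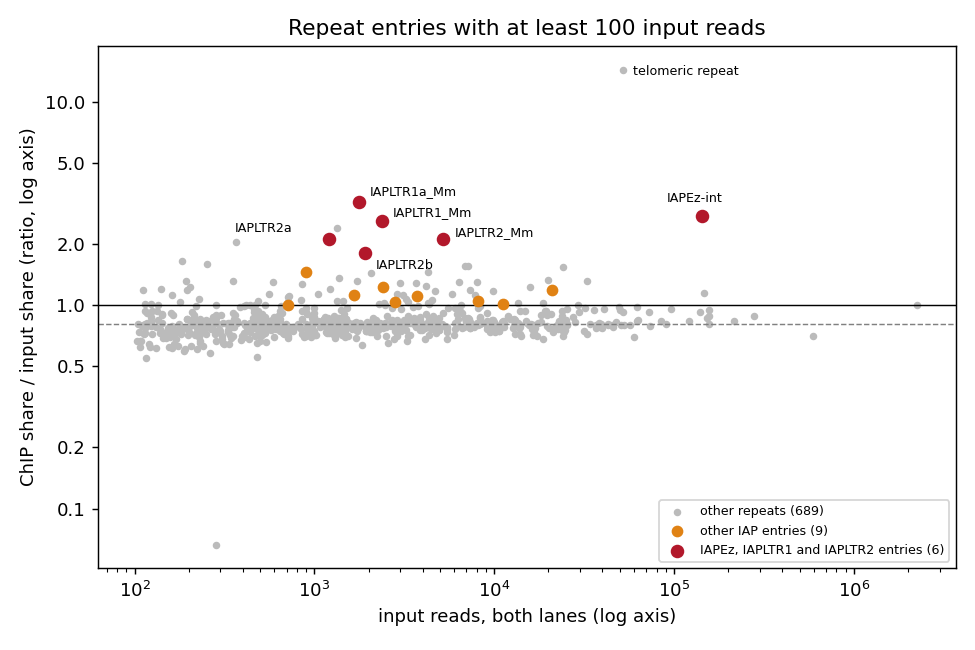
Enrichment ratio (log axis) against input reads over both lanes (log axis) for 704 repeats with at least 100 input reads; red points are the 6 IAPEz, IAPLTR1 and IAPLTR2 entries, orange points the 9 other IAP entries and grey points all others, with the input level (solid line) and the median repeat (dashed line, 0.805). The red points lie between 1.81 and 3.20, above all orange points, which lie between 1.00 and 1.46.

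A ratio against input depends on the scale set between the libraries, but the ratio of 1 entry to another does not, because the library totals cancel. Such direct ratios were computed for all 15 pairs of the 6 entries, with 95% exact conditional intervals. They compare these 2 libraries only. In 14 of 15 pairs the interval excluded 1, and in 13 of these it did so on the same side in each lane alone. Intervals of counting error alone often exclude 1 at such read numbers. Among 28 pairs of an internal entry with an LTR in other families, described below, 5 lay above 1, 12 lay below and 11 included 1. The order by ratio was IAPLTR1a_Mm, IAPEz-int, IAPLTR1_Mm, IAPLTR2_Mm, IAPLTR2a and IAPLTR2b, and the highest ratio was 1.77 times the lowest.

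By ratio the internal sequence stood below IAPLTR1a_Mm, slightly above IAPLTR1_Mm and above each LTR2 type. IAPEz-int was enriched 1.29-fold over IAPLTR2_Mm (1.25 to 1.34), 1.30-fold over IAPLTR2a (1.21 to 1.38) and 1.51-fold over IAPLTR2b (1.43 to 1.59). Against IAPLTR1a_Mm its direct ratio was 0.852 (0.809 to 0.898), so this LTR lay above the internal sequence, with lane values of 0.826 and 0.879. Against IAPLTR1_Mm the direct ratio was 1.05 (1.005 to 1.10). It was 1.08 in lane 1 alone, with an interval of 1.01 to 1.15, and 1.03 in lane 2 alone, with an interval of 0.962 to 1.10, so these neighbours in the order were separable in lane 1 and not in lane 2. Against the pooled LTR1 types IAPEz-int had a direct ratio of 0.957 (0.924 to 0.990), and the interval of each lane alone included 1. Against the pooled LTR2 types it had 1.34 (1.30 to 1.37). Against all 5 LTR entries pooled it had 1.18 (1.16 to 1.21), a value that combines LTRs above and below the internal sequence. In the composition of the reads this appears as 7.94% LTR reads in the input (7.80 to 8.07%) and 6.80% in the ChIP (6.74 to 6.87%).

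The LTR1 types were enriched more than the LTR2 types. Pooled over reads, LTR1 had a ratio of 2.85 (2.76 to 2.95) and LTR2 one of 2.04 (1.99 to 2.09), a direct ratio of 1.40 (1.34 to 1.46). It was 1.44 in lane 1 (1.35 to 1.53) and 1.36 in lane 2 (1.28 to 1.44). LTR1 types rose from 33.3% of the LTR input reads (32.5 to 34.2%) to 41.1% of the LTR ChIP reads (40.7 to 41.6%). All 6 pairs of 1 LTR1 entry with 1 LTR2 entry had an interval above 1, in each lane alone as well. The smallest was IAPLTR1_Mm over IAPLTR2_Mm at 1.23 (1.16 to 1.30). The largest was IAPLTR1a_Mm over IAPLTR2b at 1.77 (1.64 to 1.91).

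Entries of 1 LTR type also differed among themselves. IAPLTR1a_Mm was enriched 1.23-fold over IAPLTR1_Mm (1.15 to 1.32), with 1.30 in lane 1 and 1.17 in lane 2. That difference was about as large as the smallest one between an LTR1 and an LTR2 entry. IAPLTR2_Mm and IAPLTR2a were not separable: their direct ratio was 1.00 (0.931 to 1.08), and it was 1.03 in lane 1 and 0.971 in lane 2. IAPLTR2b lay below both, with direct ratios of 1.17 (1.09 to 1.24) for IAPLTR2_Mm over it and 1.16 (1.07 to 1.27) for IAPLTR2a over it. The sources used here do not say how the authors assigned reads that match several entries. Reads may therefore have been split between entries of similar sequence. Differences within a type, between LTR1 and LTR2 types and between the internal sequence and LTRs are all uncertain to that extent.

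**Figure D3:**
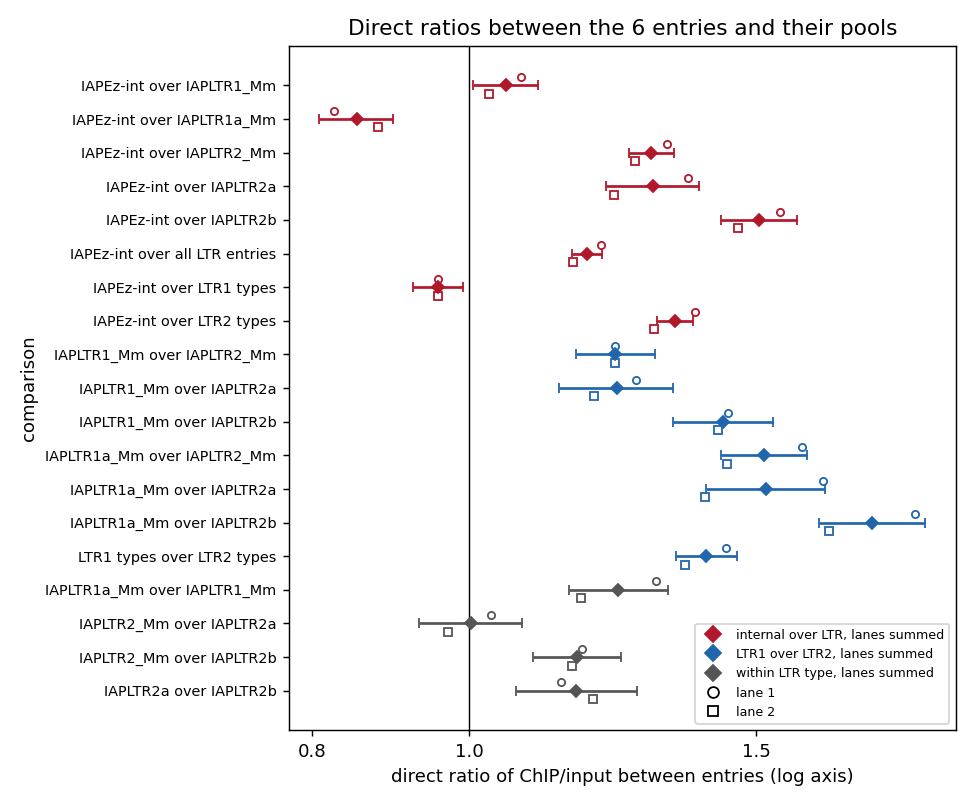
Direct ratios of ChIP over input between entries (log axis) for the internal sequence over LTRs (red), LTR1 over LTR2 (blue) and entries within an LTR type (grey); diamonds with bars are the summed lanes with 95% exact conditional intervals, open circles lane 1 and open squares lane 2. The internal sequence lies above each LTR2 type, slightly above IAPLTR1_Mm and below IAPLTR1a_Mm. All blue intervals lie above 1, and IAPLTR2_Mm over IAPLTR2a spans 1.

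The other 9 IAP entries, which cover the IAPEY, IAPLTR3 and IAPLTR4 types, were set beside these values. Of the 9, 6 had an interval above 1 and 0 reached a ratio of 1.5. All 9 had an interval above the median repeat, as did the 6 entries described here and 27.3% of the analysed repeats. The highest was IAPLTR4_I, an internal sequence, at 1.46 (1.34 to 1.58), and the lowest was IAPLTR3 at 1.00 (0.909 to 1.10). The lowest of the 6 entries described here, IAPLTR2b, was still enriched 1.24-fold over IAPLTR4_I (1.13 to 1.37). With reads pooled, the 5 LTR entries were enriched 2.06-fold (2.02 to 2.11) and all 6 entries 2.41-fold (2.38 to 2.44) over the 9 other IAP entries. The 6 entries held 74.9% of all IAP reads in the input (74.7 to 75.1%) and 87.8% in the ChIP (87.7 to 87.9%). The gap is not an independent observation, because the 6 were grouped with these values known.

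To see how an internal sequence and its LTR compare elsewhere in the table, 28 pairs of other LTR retrotransposon families were formed. Pairing was by name, apart from the fixed pair of MMETn-int with RLTRETN_Mm. The internal entry was higher in 5 pairs and lower in 12, by the interval of the direct ratio, and in 11 the interval included 1. The direct ratios had a median of 0.949. They ran from 0.731 for RLTR1B-int over RLTR1B to 1.36 for MMETn-int over RLTRETN_Mm, the early transposon and its LTR. The next highest was RLTR6-int over RLTR6_Mm at 1.31. Of the 5 values of IAPEz-int over a single LTR, 4 lay within this range, and the 1.51 over IAPLTR2b lay above it. Within other IAP families the direction was mixed as well: IAPEY3-int over IAPEY3_LTR was 1.15 (1.09 to 1.21), IAPEy-int over IAPEY_LTR was 0.824 (0.778 to 0.871), and IAPLTR3-int over IAPLTR3 was 1.05 (0.949 to 1.16). The pair IAPLTR4_I over IAPLTR4, formed outside the name rule after its values were seen, had 1.30 (1.18 to 1.45). The levels in these pairs were lower: the highest ratio of an internal entry among them was 1.54, for RLTR6-int, and the highest of an LTR was 1.56, for RLTR1B, both below every one of the 6 entries.

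**Figure D4:**
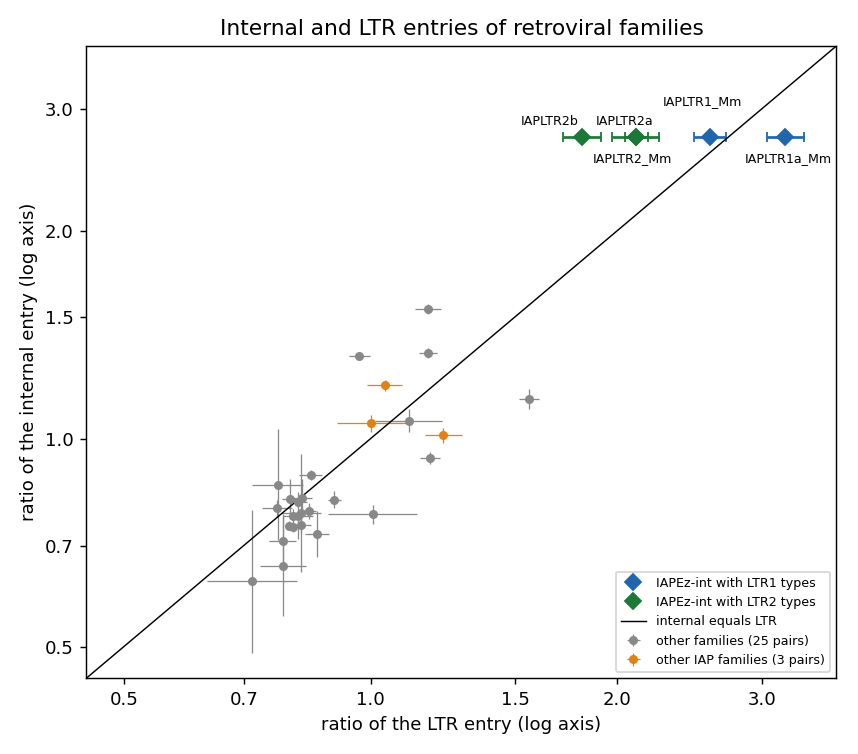
Enrichment ratio of the internal entry against that of its LTR entry (both log axes) for 28 pairs of other families, matched by name or fixed (grey, and orange for the 3 other IAP pairs), and for IAPEz-int with each of its 5 LTR types (diamonds, blue for LTR1 and green for LTR2). Bars are 95% exact intervals of counting error and the line marks equal ratios. The diamonds lie apart at the upper right, with the green ones and IAPLTR1_Mm above the line and IAPLTR1a_Mm below it.

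Over all entries, the 6 together rose from 1.77% of the input reads of the table (1.76 to 1.77%) to 4.76% of its ChIP reads (4.75 to 4.77%), a gain of 2.99 percentage points, of which IAPEz-int made up 2.81. Summed over the repeats with a ratio above 1, ChIP reads beyond the level of ratio 1 were counted, and 25.3% of them belonged to the 6 entries. The telomeric (CCCTAA)n, with 1025528 ChIP and 51711 input reads, held more of them than the 6 entries. The share of 25.3% depends strongly on that repeat, and also on the scale of table totals. The tables held 12235477 ChIP and 8856751 input reads. No molecular identifiers are described, so the intervals cover counting error only and are too narrow where reads are copies of 1 fragment, and with 1 sample a group no difference has a replicate check.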

How the data were processed

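The deposited tables, 1 for each of 2 lanes, give raw read counts per repeat type for ChIP and input. Per the submitters' processing notes, Bowtie 1.0.0 and the build mm9 were used. The sources used here do not state the rule that assigned reads to repeats or the handling of duplicates. The authors' deposited log2 ratios equal the log2 of the counts with 0.5 added, minus a constant per lane, within 0.00053. They were used only for the deposited scale and for 1 bound.

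Lanes were summed. Repeats with at least 100 input reads were analysed. Ratios of shares have 95% exact conditional (Clopper-Pearson) intervals, direct ratios the exact conditional interval of an odds ratio, and shares of reads Wilson intervals. With 1 sample a group no test between conditions was made. Computation used Python 3.11.15 with SciPy 1.17.1. Interval coverage was checked on counts simulated with counting error alone. Such counts hold no duplicate reads and no spread between cultures, so the check does not bear on either. Pairs of other families joined X-int with X, X_LTR or X_Mm, ignoring case, plus a few fixed pairs. Among the pairs analysed, only MMETn-int with RLTRETN_Mm was not also formed by name. All 6 entries were named, other IAP entries and pairs by their highest and lowest values, and other repeats where their ratio was at or above the lowest of the 6. The repeats just below it, RLTR6-int and the further IAP pairs were named after their values were seen. The entries, lists and alternatives were chosen with earlier results of these data known. Table totals were 6204712 ChIP and 4467116 input reads in lane 1 and 6030765 and 4389635 in lane 2. Alternatives were each lane alone, other scales, other read minimums and 1 read added.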

Additional observations from a re-analysis of the deposited data

How the results depend on the processing

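Of 150 alternative values, 125 stayed within the interval of the reported ratio or within 1.5 times the reported count, and 25 moved. No ratio whose interval excluded 1 changed direction, while IAPLTR2_Mm over IAPLTR2a, whose interval included 1, went from 1.00 to 0.971 in lane 2 alone. The scale between the libraries moved all 6 ratios upward and left their order and the direct ratios as they were, since these do not depend on it. With the median repeat set to 1, the ratios were 3.98 for IAPLTR1a_Mm, 3.39 for IAPEz-int, 3.22 for IAPLTR1_Mm, 2.62 for IAPLTR2_Mm, 2.62 for IAPLTR2a and 2.25 for IAPLTR2b. Without the 5 most abundant repeats they were 3.68, 3.14, 2.98, 2.43, 2.42 and 2.08 in the same order, and on the deposited scale 3.60, 3.07, 2.91, 2.37, 2.37 and 2.04. Single lanes moved IAPEz-int over the LTR2 types to 1.38 in lane 1 and 1.30 in lane 2, and IAPLTR1a_Mm over IAPLTR2a to 1.40 in lane 2. Of all analysed repeats, 14 had a ratio of at least 1.5, which became 33 with the median repeat set to 1, 23 without the 5 most abundant and 36 without a read minimum, while those of at least 2 went from 8 to 21 without a read minimum. All 6 entries stayed at 1.5 or above under each of these alternatives. The number at 2 or above was 5 in the main setting and 6 on each of the other scales. It was 4 in lane 1 alone, where IAPLTR2a fell just short at 1.999. The pair IAPLTR4_I and IAPLTR4, chosen after seeing the data, raised the pairs with a higher internal entry from 5 to 6. Pairs with a lower internal entry numbered 12 in the main setting, 8 in lane 1 alone and 13 in lane 2 alone. Those with a higher one numbered 5 in lane 1 alone and 4 in lane 2 alone. With at least 1000 input reads in both entries, 10 were lower and 5 higher. Depth limits the smallest LTR entries most: IAPLTR2a had 1205 input reads. No paired analysis was possible because each group has 1 sample.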
